A study of Sus scrofa with 24 samples.

Results

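The Z-disc, M-band and giant proteins of the sarcomere are described here in pig back muscle through 9 genes: TTN, NEB, MYOM1, MYOM2, LDB3, MYOZ1, MYOZ2, ACTN2 and ACTN3. The genes were chosen by name, as rows of the deposited table that carry one of these symbols, and 7 of the 9 were found in this way, with 22 transcripts of 22154 in all. MYOM2 and LDB3 were not listed under a symbol. At the RefSeq positions of TTN, NEB, MYOM2 and LDB3 on the same genome build, Sscrofa11.1, the table holds 4 loci without a symbol, with 56 further transcripts, and these are called the TTN, NEB, MYOM2 and LDB3 locus below. This gives 11 units with 78 transcripts, out of 12017 genes with 9506 symbols.

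The tissue was the longissimus dorsi, a long back muscle, cut at the thoracolumbar junction 25 min after slaughter. The animals were 24 F1 pigs of a cross of 8 Duroc boars with 112 Luchuan sows, aged 210 ± 6 days, of which 12 had a high and 12 a low content of intramuscular fat (IMF), picked from 265 animals kept on the same diets and farm. Each library is 1 animal, made from polyA RNA and read as pairs of 150 bases, and the animals of a group are numbered in the order of their accessions. The comparison asks whether transcripts of these proteins differ in level between muscle rich and poor in fat.

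A sarcomere is the contractile unit of striated muscle, bounded by Z-discs, where thin filaments of opposite polarity are joined, and carrying at its centre the M-band, where thick filaments are joined. Alpha-actinins (ACTN2, ACTN3) cross-link actin in the Z-disc, and the calsarcins (MYOZ1, MYOZ2) and the PDZ and LIM protein LDB3, also called ZASP or Cypher, bind to them there. Titin (TTN) spans from Z-disc to M-band and acts as a spring and ruler, nebulin (NEB) runs along the thin filament from the Z-disc, and the myomesins (MYOM1, MYOM2) bridge thick filaments in the M-band. ACTN3 and MYOZ1 are known from fast fibres and MYOZ2 from slow and cardiac fibres.

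Values are the authors' FPKM, a read density per kilobase of transcript and per mega (M) of reads, summed over the transcripts of a unit. Summed FPKM per library was between 351119 and 415572, and an inferred depth, which is relative, was between 32.9 and 40.8 M reads (M for mega). All 12 markers of skeletal muscle fibres were listed, with summed levels of 25174 to 56682.5 FPKM in high IMF and 28172 to 65421 FPKM in low IMF. ACTA1 alone averaged 21138 FPKM in high IMF and 27725 FPKM in low IMF. MB averaged only 0.408 and 0.628 FPKM, and 11 of the 12 were above 0 in every library. Of 8 markers of cardiac muscle 1 was listed, TNNT2, at 0.739 to 4.31 FPKM in high IMF and 0 to 3.10 FPKM in low IMF. Low IMF animal 10 and high IMF animal 7 stood apart, with 18.5% and 20.2% of FPKM in the 10 most abundant genes. The Y-linked gene EIF1AY was at 0 to 0.131 FPKM in high IMF animals 1, 2, 3, 8 and 11 and low IMF animals 2, 5 and 10. In all other animals it was at 14.3 to 28.9 FPKM. It is the Y-linked level used as a term below. The labels' animal identifiers begin with 1 of 2 numbers of 4 digits, which gives set A (the lower number) and set B, each with 6 animals of high and 6 of low IMF; what the digits mean is not stated in the labels.

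No unit passed the test between the groups. In limma on log2(FPKM + 1), adjusted over 11757 genes, 0 of the 7 genes listed by symbol and 0 of the 4 loci had an adjusted p under 0.05, against 5 genes higher (0.0425%) and 1 gene lower (0.00851%) in high IMF among all genes tested, or 0.051% in either direction. The lower one is not analysed here. At an unadjusted p under 0.05 stood the TTN-named rows, MYOM1 and the TTN locus, all lower in high IMF, where the background was 0.893% lower, 6.79% higher and 7.68% in either direction. The log2 fold change was below 0 in 9 of the 11 units, with a median of -0.14. These units are not all separate. They stand for 9 gene symbols, since TTN and NEB each appear both as named rows and as a locus. The TTN-named rows lie at the position of the TTN locus, but MSTRG.5505.3 and MSTRG.5505.4 among them are on the opposite strand. All NEB-named rows are on the strand opposite to NEB. The NEB-named rows, counted as below 0, were at -0.0016. Over all genes tested it was below 0 in 3130, or 26.6%, with a median of 0.08. Fibre markers lay on the same side as the 11 units, 8 of 12 below 0 with a median of -0.15. Under TMM scaling (trimmed mean of M values) the median of all genes was -0.0012 and that of the units -0.26, with 10 of 11 below 0. Muscle here is a bulk sample, in which fewer cells of a type and less RNA per cell cannot be told apart.

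**Figure D1:**
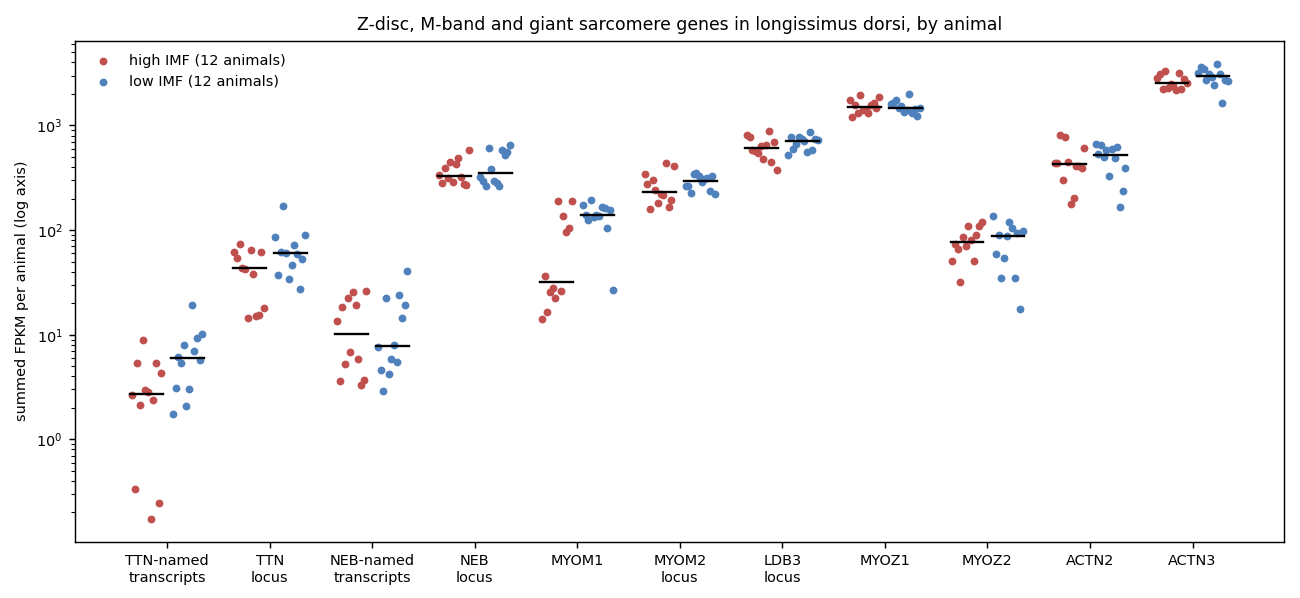
Summed FPKM per animal on a log axis for each of the 11 units, with high IMF to the left of low IMF, 12 animals each; points are animals and bars are medians. ACTN3 is the most abundant unit and the groups overlap in every unit. MYOM1 has no value between 36.0 and 96.4 FPKM, and the TTN-named rows have none between 0.337 and 1.75 FPKM.

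ACTN3 was the most abundant of the genes and TTN the least. On the FPKM scale, which is per length, the means over 24 animals were 2798 ± 528 FPKM for ACTN3 and 1527 ± 216 FPKM for MYOZ1 (SD). In the next places stood the LDB3 locus at 654 ± 132, ACTN2 at 466 ± 176, the NEB locus at 394 ± 129 and the MYOM2 locus at 276 ± 72.9 FPKM. MYOM1 at 106 ± 64.1, MYOZ2 at 78.0 ± 31.6 and the TTN locus at 54.2 ± 32.6 FPKM came last. ACTN3 exceeded MYOZ1, MYOZ1 the LDB3 locus and the MYOM2 locus MYOM1 in 24 of 24 animals. The other neighbours in this order overlapped: the first exceeded the second in 19 of 24 animals for the LDB3 locus and ACTN2 and for the NEB and MYOM2 loci, in 17 for ACTN2 and the NEB locus and for MYOZ2 and the TTN locus, and in 15 for MYOM1 and MYOZ2.

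Titin is the largest protein of vertebrate muscle, and its transcripts are split over several rows of the table. RefSeq places TTN at chr15:84226953-84501320 on Sscrofa11.1, and the gene is read on the minus strand. Of the 3 rows named TTN, MSTRG.5505.3 has 1323 bases and is classed as antisense to an annotated exon, MSTRG.5505.4 has 5611 bases, is classed as intergenic and lies on the same plus strand, and MSTRG.5506.24 is a sense isoform of 20243 bases and 44 exons at the 5′ end of the gene. The library kit is not stated to mark strand, so reads of TTN and of an antisense transcript cannot be told apart. The near full-length titin isoforms, of 93456 to 100269 bases and 276 to 294 exons, are listed without a symbol at the TTN locus.

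The rows named TTN summed to 0.174 to 8.91 FPKM in high IMF with a median of 2.73 FPKM, against 1.75 to 19.4 FPKM in low IMF with a median of 5.94 FPKM. High IMF lay below the low IMF median in 11 of 12 animals, and 3 of them lay below every low IMF animal. The means were 3.14 ± 2.55 FPKM in high IMF and 6.76 ± 4.84 FPKM in low IMF (SD, n = 12 each), with a log2 fold change of -0.96 (SE 0.351, limma unadjusted p = 0.0111, adjusted p = 0.518). The sense isoform MSTRG.5506.24 had a median of 0.117 FPKM in high IMF and 2.78 FPKM in low IMF, and it exceeded 1 FPKM in 4 of the 12 animals of high IMF and 10 of the 12 of low IMF. Its log2 fold change was -1.13 (SE 0.337), with limma adjusted p = 0.457 over 21405 transcripts, of which 4 (0.0187%) were called and 6.34% had an unadjusted p under 0.05, against 3 of the 78 described here. It was listed at 0 in 3 animals of high IMF and 1 of low IMF. Isoforms of the TTN locus over nearly the same 5′ stretch did not show a change of this size. The log2 fold change was 0.051 for MSTRG.5506.25, 0.036 for MSTRG.5506.26 and -0.21 for the shorter MSTRG.5506.23. Mean levels were 3.03 FPKM for MSTRG.5506.25 and 6.37 FPKM for MSTRG.5506.26, against 1.86 FPKM for MSTRG.5506.24. How reads were divided among these isoforms was not tested.

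The TTN locus had 14.6 to 73.6 FPKM in high IMF with a median of 43.1 FPKM, against 27.1 to 169 FPKM in low IMF with a median of 59.8 FPKM. The ranges overlapped broadly, with 8 of 12 high IMF animals below the low IMF median and 3 of 12 low IMF animals above every high IMF animal. The means were 42.0 ± 21.7 FPKM in high IMF and 66.4 ± 37.7 FPKM in low IMF, with a log2 fold change of -0.70 (SE 0.305, unadjusted p = 0.0298, limma adjusted p = 0.608). Low IMF animal 4 was the highest at 169 FPKM, of which 135.5 FPKM belonged to 1 isoform, MSTRG.5506.10.

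The isoforms of the TTN locus fall into 3 classes by position, chosen after their values were seen. The 4 pieces at the 3′ side, of 1326 to 57859 bases, made up 17.7 ± 18.6 FPKM in high IMF and 44.0 ± 36.2 FPKM in low IMF, with medians of 14.4 and 32.3 FPKM. The 3 pieces at the 5′ end, of 12912 to 20216 bases, had 10.5 ± 5.44 FPKM in high IMF and 10.9 ± 5.43 FPKM in low IMF. The 3 near full-length isoforms had 13.8 ± 18.0 FPKM in high IMF and 11.5 ± 18.9 FPKM in low IMF. The lower mean of the locus in high IMF therefore lies in the 3′ pieces, and the classes were not tested. In 24 animals 7 different isoforms were the most abundant of the locus. The near full-length isoforms were above 15 FPKM in high IMF animals 1, 3, 4 and 8 and in low IMF animals 9 and 12. Weighted by transcript length, the log2 fold change was -0.60 for the locus (limma adjusted p = 0.779), an alternative chosen after seeing the data.

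**Figure D2:**
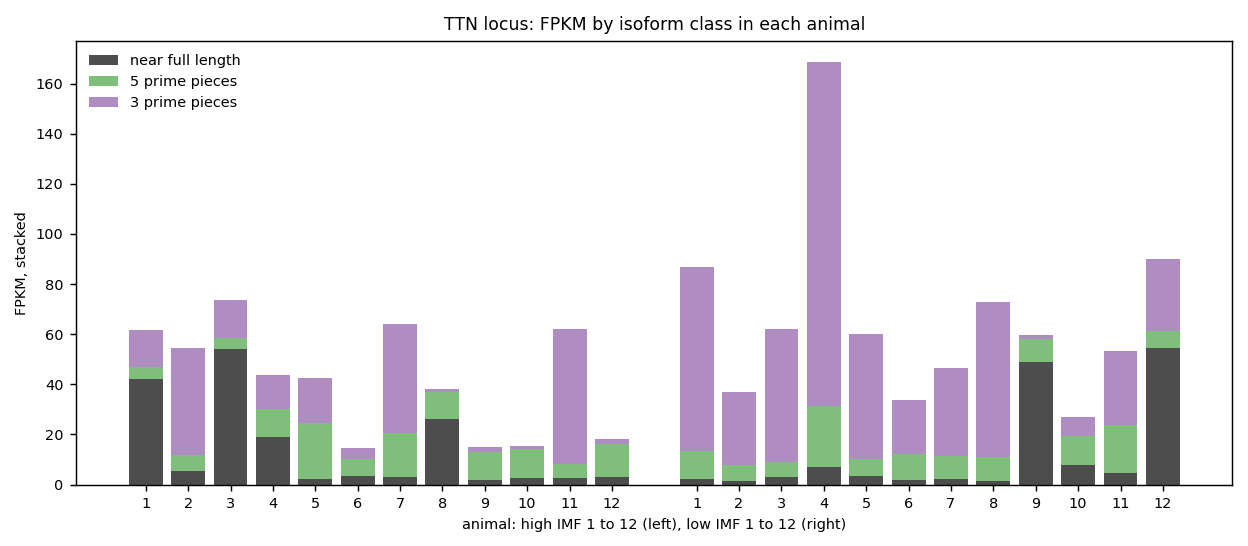
Stacked FPKM of the TTN locus in each animal, high IMF on the left and low IMF on the right, split into isoforms near full length, pieces at the 5′ end and pieces at the 3′ side. The composition differs from animal to animal, and low IMF animal 4 stands highest at 169 FPKM, mostly in 3′ pieces.

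Nebulin, the thin filament's giant protein, showed no called difference, and its level moved with that of other long transcripts in the same library. RefSeq places NEB at chr15:546187-766131, read on the plus strand. None of the 4 rows named NEB lies on that strand: MSTRG.5160.1, MSTRG.5160.2 and MSTRG.5160.4, of 376 to 581 bases, are classed as antisense to an annotated exon and MSTRG.5161.1, of 4856 bases, as lying within an intron. They summed to 3.32 to 26.2 FPKM in high IMF with a median of 10.15 FPKM, and to 2.89 to 41.1 FPKM in low IMF with a median of 7.81 FPKM. The groups overlapped over almost the whole range, with means of 12.8 ± 9.09 FPKM in high and 13.3 ± 11.5 FPKM in low IMF. Their log2 fold change was -0.0016 (SE 0.409, limma adjusted p = 0.999). Of these rows, MSTRG.5160.2 was the one of the 78 transcripts whose share of its unit had an unadjusted p under 0.05 in limma (p = 0.0438, adjusted p = 0.9747); over all 15141 shares tested 0 were called (0%) and 4.82% had an unadjusted p under 0.05.

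The NEB locus itself, with 27 isoforms, had 270 to 581 FPKM in high IMF with a median of 328 FPKM, against 261 to 647 FPKM in low IMF with a median of 355 FPKM. The means were 369 ± 99.3 FPKM in high IMF and 420 ± 153 FPKM in low IMF, with a log2 fold change of -0.14 (SE 0.176, limma adjusted p = 0.857). Its 12 isoforms of 16866 to 20997 bases and 117 to 145 exons had 156 ± 115 FPKM in high IMF and 159 ± 129 FPKM in low IMF. Its 15 isoforms of 4715 to 9272 bases, which start further 3′, had 213 ± 34.7 FPKM in high IMF and 261 ± 75.5 FPKM in low IMF. The long isoforms therefore had nearly the same mean in both groups, with a spread within each group that was close to the mean.

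That spread went along with the level of other long transcripts. Over 401 transcripts of at least 10000 bases that belong to none of the 11 units, the median log2 deviation of each animal from the mean of all animals lay above 0 in 11 animals, 6 of high and 5 of low IMF, and below 0 in 13. The long NEB isoforms had 188 to 413 FPKM in those 11 animals and 5.33 to 99.97 FPKM in those 13, with no overlap. The rows named NEB had 13.5 to 41.1 FPKM in the 11 and 2.89 to 7.91 FPKM in the 13, again without overlap. Isoforms under 10 kb overlapped between the 11 animals, at 150 to 428 FPKM, and the 13, at 189 to 337 FPKM. Within the groups their Spearman correlation with the deviation was -0.77 in high IMF and 0.30 in low IMF, against 0.81 in high IMF and 0.73 in low IMF for the long isoforms. Such a relation was not limited to NEB. The near full-length TTN isoforms had a median of 7.79 FPKM (2.36 to 54.4) in the 11 animals and 2.60 FPKM (1.41 to 18.9) in the 13. Over all 24 animals their Spearman correlation with the deviation was 0.66, against 0.76 for the long NEB isoforms and also for the whole NEB locus. For the whole TTN locus it was only 0.037, and for the TTN-named rows 0.26. For ACTN3 it was -0.60. What part the deviation has in the NEB, TTN and ACTN3 values was not tested. It averaged 0.014 ± 0.177 in high IMF and -0.034 ± 0.209 in low IMF. Across the 24 animals the rows named NEB and the NEB locus ranked alike, with a Spearman correlation of 0.86, and both share libraries and depth.

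**Figure D3:**
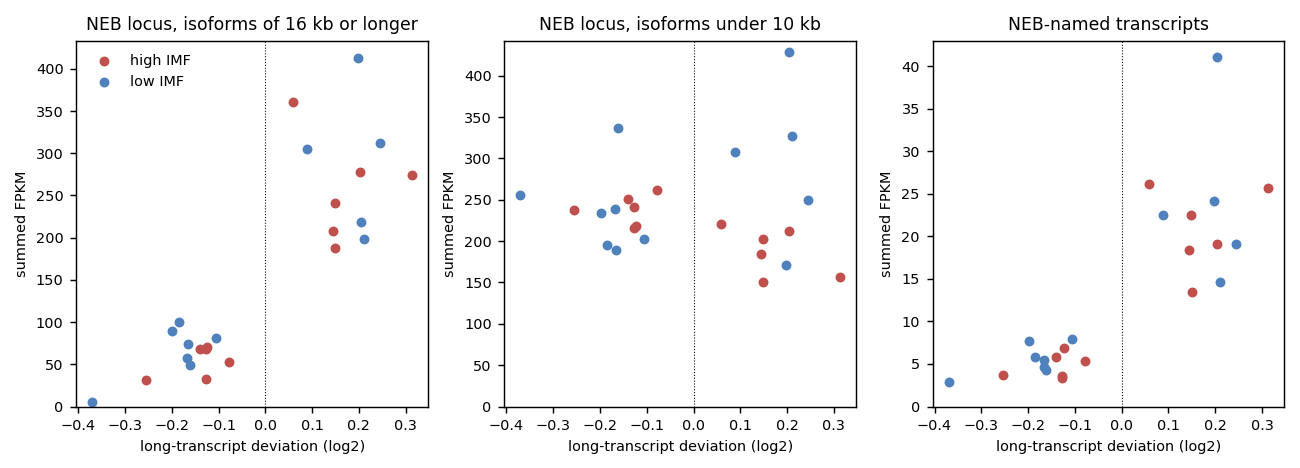
FPKM of the long isoforms of the NEB locus, of its isoforms under 10 kb and of the rows named NEB, against the median log2 deviation of 401 other long transcripts in the same animal; points are animals of high and low IMF. Long isoforms and NEB-named rows are high in the 11 animals above 0 and low in the 13 below 0, in both groups. The short isoforms overlap between the 11 and the 13.

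MYOM1, the myomesin present in all striated muscle, had the smallest p of the 11 units and the largest change on the log2(FPKM + 1) scale. With a pseudocount of 0.1 the TTN-named rows had the larger one, at -1.41 against -1.38 for MYOM1. RefSeq places it at chr6:103451206-103593093, and the table lists 2 reference transcripts of 38 exons. Its level was 14.0 to 191 FPKM in high IMF with a median of 31.9 FPKM, against 26.9 to 194 FPKM in low IMF with a median of 138 FPKM. The means were 73.9 ± 67.6 FPKM in high IMF and 138 ± 42.2 FPKM in low IMF (SD, n = 12 each), and 10 of 12 high IMF animals lay below the low IMF median. This was a log2 fold change of -1.36 (SE 0.418, unadjusted p = 0.00326), and the limma adjusted p of 0.358 was not under the threshold. MYOM1 ranked 107 by p among 11757 genes.

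Ordered by MYOM1 level, 8 animals had 14.0 to 36.0 FPKM and the next had 96.4 FPKM, a step of 2.67-fold. Below the step lay 7 of 12 high IMF animals (numbers 1, 2, 3, 4, 5, 6 and 8) and 1 of 12 low IMF animals (number 12, at 26.9 FPKM). The 5 other high IMF animals had 96.4 to 191 FPKM and the 11 other low IMF animals 105 to 194 FPKM, so that outside the low level the groups overlapped. The step was noticed in the data and was not tested, and the TTN-named rows had a wider one of 5.20-fold, between 0.337 and 1.75 FPKM, with 3 animals, all of high IMF, below it. Both identifier sets held animals on each side, with 3 of 6 high and 0 of 6 low IMF animals of set A and 4 of 6 high and 1 of 6 low IMF animals of set B below it. Within the sets the log2 difference was -1.26 in set A and -1.46 in set B. High IMF animals 4 and 8, both below the step, share the first 9 digits of their identifiers. Long-transcript deviation did not separate the MYOM1 levels, which were 14.0 to 194 FPKM in the 11 animals above 0 and 22.3 to 172 FPKM in the 13 below. Of the animals with EIF1AY near 0, high IMF 1, 2, 3 and 8 lay below the step. High IMF 11 and low IMF 2, 5 and 10 lay above it, and a relation was not tested.

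Both MYOM1 transcripts took part. ENSSSCT00000004091 had a median of 26.3 FPKM in high IMF and 106 FPKM in low IMF, with a log2 fold change of -1.25 (SE 0.407, limma adjusted p = 0.538). ENSSSCT00000028416 had a median of 6.88 FPKM in high IMF and 39.0 FPKM in low IMF, with a log2 fold change of -1.55 (SE 0.481, limma adjusted p = 0.496). ENSSSCT00000004091 was the more abundant in all 24 animals, with 77.8 ± 6.54% of the gene's FPKM in high IMF and 72.5 ± 8.34% in low IMF. In the authors' deposited table the fold of low over high IMF is 2.241 with p = 0.02115 for ENSSSCT00000004091 and 2.689 with p = 0.01378 for ENSSSCT00000028416. Among the 78 transcripts, 6 have a p under 0.05 in the authors' deposited table, where 6.39% of all 22154 transcripts do, and their lowest q-value of any kind there is 0.266.

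**Figure D4:**
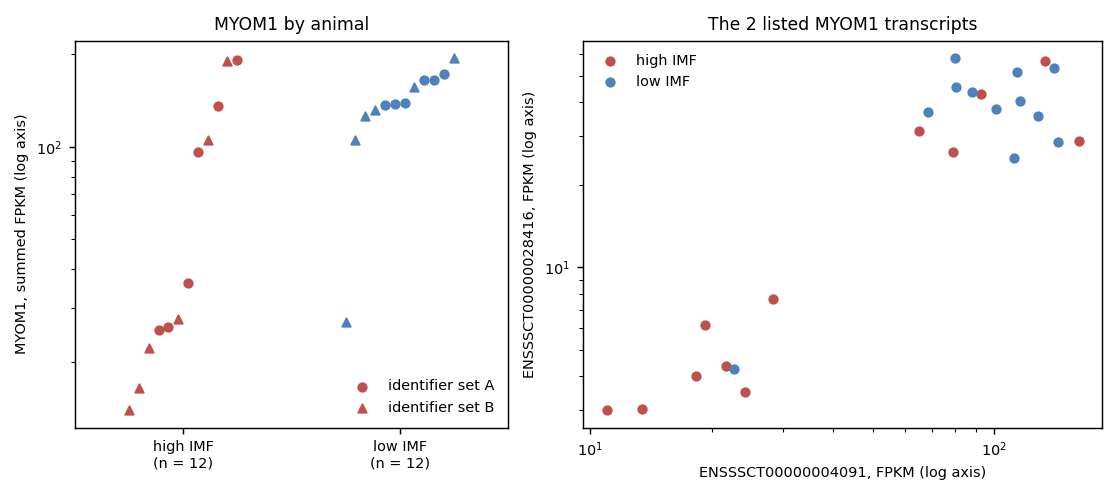
Left, summed MYOM1 FPKM per animal on a log axis, high IMF left of low IMF, with the marker shape giving the identifier set, A or B. Right, FPKM of the 2 listed MYOM1 transcripts against each other on log axes; the same 8 animals, 7 of high and 1 of low IMF, sit apart from the other 16.

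MYOM2, the myomesin of fast fibres, was more abundant and less variable than MYOM1 when all transcripts of its locus were summed. The MYOM2 locus, at the RefSeq position chr15:33529559-33606928, had 157 to 435 FPKM in high IMF with a median of 231 FPKM, against 222 to 348 FPKM in low IMF with a median of 297 FPKM. The low IMF range lay inside that of high IMF, and 6 of 12 high IMF animals lay below every low IMF animal. The means were 261 ± 92.4 FPKM in high IMF and 290 ± 46.0 FPKM in low IMF, with a log2 fold change of -0.21 (SE 0.151, limma adjusted p = 0.746). The assembled isoform MSTRG.5215.2, of 37 exons, was the most abundant in 20 of 24 animals. The sum of the 4 reference transcripts alone had a log2 fold change of 0.53 (limma adjusted p = 0.857), opposite in sign to the locus. With reference transcripts alone the order of levels was reversed as well. The mean log2 ratio of MYOM2 to MYOM1 was then -0.98 in high IMF and -2.87 in low IMF.

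The ratio of MYOM2 to MYOM1, which hardly moves with library scaling, was higher in high IMF. The MYOM2 locus exceeded MYOM1 by 1.16 to 24.4-fold in high IMF with a median of 7.88, against 1.54 to 8.25-fold in low IMF with a median of 2.02. High IMF exceeded all low IMF animals but number 12 in 8 of 12 animals, and lay below the low IMF median in 3. The mean log2 ratio was 2.32 ± 1.34 in high IMF and 1.17 ± 0.612 in low IMF, a difference of 1.149 (two-sided permutation test, p = 0.0154, adjusted over 3 ratios p = 0.0461). That call rested on a narrow margin, since leaving out any of 18 of the 24 animals ended it (high IMF 1, 2, 3, 4, 5, 6 and 8, low IMF 1 to 11), with adjusted p up to 0.0927. Within identifier sets the difference was 1.06 in set A (exact permutation p = 0.104) and 1.23 in set B (exact permutation p = 0.113), 6 against 6 animals each. This ratio holds the same MYOM1 values as above and is not separate evidence.

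LDB3, which binds alpha-actinin in the Z-disc, showed no called difference. The LDB3 locus, at the RefSeq position chr14:87660961-87722249, had 374 to 881 FPKM in high IMF with a median of 612 FPKM, against 521 to 858 FPKM in low IMF with a median of 715 FPKM. High IMF lay below the low IMF median in 9 of 12 animals, and the ranges overlapped. Means were 621 ± 153 FPKM in high IMF and 687 ± 103 FPKM in low IMF, with a log2 fold change of -0.17 (SE 0.123, limma adjusted p = 0.742). Of its 13 isoforms, MSTRG.4792.9, of 9 exons and 1771 bases, carried 48.8 ± 10.9% of the FPKM in high IMF and 46.0 ± 5.10% in low IMF, and was the most abundant in 22 of 24 animals. The longer MSTRG.4792.2, of 14 exons and 4463 bases, carried 24.997 ± 10.1% in high IMF and 27.5 ± 9.39% in low IMF.

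The calsarcins showed no called difference, and in both the identifier sets went opposite ways. MYOZ1, at chr14:76445109-76453014, had 1204 to 1935 FPKM in high IMF with a median of 1513 FPKM, against 1234 to 2004 FPKM in low IMF with a median of 1454 FPKM. It had the smallest relative spread of the 11 units, with coefficients of variation of 14.9% in high IMF and 13.9% in low IMF. Between the groups its log2 fold change was 0.021 (SE 0.0891, limma adjusted p = 0.970), and 2 SE on either side reached from -0.16 to 0.20; it took the other sign under both scalings. Within the sets the log2 difference was -0.13 in set A and 0.18 in set B. The 7-exon transcript ENSSSCT00000011277, of 1190 bases, carried 64.3 ± 2.01% of MYOZ1 in high IMF and 62.6 ± 3.62% in low IMF.

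MYOZ2, at chr8:104578942-104609367, had 31.8 to 120 FPKM in high IMF with a median of 77.6 FPKM, against 17.4 to 137 FPKM in low IMF with a median of 88.5 FPKM. The high IMF range lay inside that of low IMF. The means were 78.4 ± 26.7 FPKM in high IMF and 77.5 ± 37.1 FPKM in low IMF, and the difference of mean log2(FPKM + 1) was 0.13 (SE 0.279, limma adjusted p = 0.932), with 2 SE reaching from -0.43 to 0.69, a wider interval than for MYOZ1. Within the sets it was -0.27 in set A and 0.54 in set B, where MYOZ2 averaged 84.1 ± 26.9 FPKM in high IMF and 64.8 ± 34.3 FPKM in low IMF. The interaction of set and group was not called (limma adjusted p = 0.998 for both calsarcins). MYOZ1 exceeded MYOZ2 in every animal, by a median of 19.1-fold in high IMF and 19.4-fold in low IMF, and the mean log2 ratio differed by -0.11 (permutation test, p = 0.690, adjusted over 3 ratios p = 0.933).

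Of the alpha-actinins, ACTN3, the form of fast fibres, had 2183 to 3350 FPKM in high IMF with a median of 2524 FPKM, against 1621 to 3910 FPKM in low IMF with a median of 2993 FPKM. RefSeq places it at chr2:5860386-5873779. High IMF lay below the low IMF median in 9 of 12 animals and inside the low IMF range. The means were 2647 ± 413 FPKM in high IMF and 2948 ± 601 FPKM in low IMF, with a log2 fold change of -0.14 (SE 0.115, limma adjusted p = 0.785). The 21-exon transcript ENSSSCT00000014153 carried 79.6 ± 12.3% of ACTN3 in high IMF and 77.6 ± 11.8% in low IMF.

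ACTN2, the form of all fibres and of the heart, at chr14:54670727-54742717, had 177 to 802 FPKM in high IMF with a median of 425 FPKM, against 168 to 665 FPKM in low IMF with a median of 517 FPKM. Over all animals the log2 fold change was -0.12 (SE 0.247, limma adjusted p = 0.932). The identifier sets went opposite ways. In set A the mean was 324 ± 113 FPKM in high IMF and 541 ± 121 FPKM in low IMF, and in set B it was 578 ± 176 FPKM in high IMF and 421 ± 189 FPKM in low IMF (SD, 6 animals each). The interaction of set and group was 1.34 on the log2 scale (SE 0.427, unadjusted p = 0.00451, limma adjusted p = 0.998 over all genes), so the difference between the sets was not called. The shortest of its 4 transcripts, ENSSSCT00000023830, of 2854 bases, carried 86.4 ± 4.23% of ACTN2 in high IMF and 86.1 ± 5.34% in low IMF.

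The ratio of ACTN3 to ACTN2 had a median of 6.80 in high IMF and 6.11 in low IMF, and the mean log2 ratio differed by -0.022 (permutation test, p = 0.933, adjusted over 3 ratios p = 0.933). Within the sets the difference was 0.57 in set A (exact permutation p = 0.0649) and -0.61 in set B (exact permutation p = 0.0801). ACTN3 was the more abundant in all 24 animals.

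**Figure D5:**
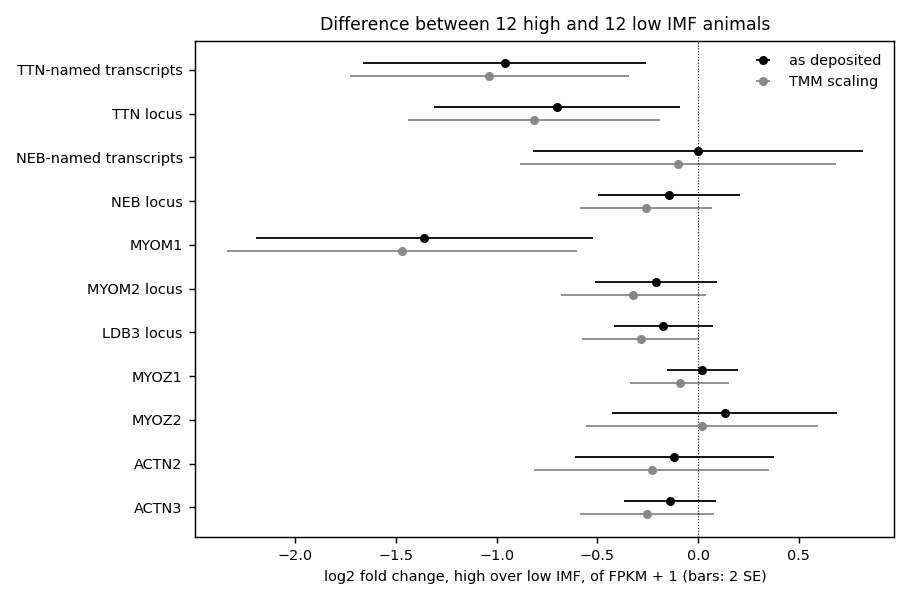
Log2 fold change of FPKM + 1, high over low IMF, for the 11 units, as deposited (black) and after TMM scaling (grey); bars span 2 SE on either side. MYOM1 at -1.36, the TTN-named rows at -0.96 and the TTN locus at -0.70 lie farthest from 0, and no unit passed the adjusted threshold under either scaling.

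Partner proteins of the same structures were listed alongside. Of 25 tested Z-disc partners, 20 had a log2 fold change above 0 and 5 below, with a median of 0.14, and 0 were called by limma, 1 of them at an unadjusted p under 0.05. That was MYPN, which encodes myopalladin, a Z-disc and I-band protein that binds nebulin and alpha-actinin. MYPN had 15.7 to 68.4 FPKM in high IMF with a median of 46.2 FPKM, against 3.46 to 59.2 FPKM in low IMF with a median of 14.4 FPKM, and all 12 high IMF animals exceeded the low IMF median. Its log2 fold change was 1.32 (SE 0.383, unadjusted p = 0.00204, limma adjusted p = 0.288). MYOZ3, the third calsarcin, averaged 143 ± 24.4 FPKM in high IMF and 122 ± 27.6 FPKM in low IMF, with a log2 fold change of 0.25 (limma adjusted p = 0.659). The list's median stood beside one of 0.08 over all genes tested. For this list and those below, 8627 of all 11757 genes tested lay above 0, and 7.68% had an unadjusted p under 0.05.

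Of 16 tested M-band partners, 7 lay above 0 and 9 below, with a median of -0.00087, 0 calls by limma and 1 at an unadjusted p under 0.05. TRIM63, a ubiquitin ligase also known as MuRF1 that binds titin at the M-band, averaged 89.6 ± 40.6 FPKM in high IMF and 63.4 ± 30.2 FPKM in low IMF, with a log2 fold change of 0.49 (unadjusted p = 0.0448, limma adjusted p = 0.642). Its relative TRIM55 averaged 5.95 ± 2.17 FPKM in high IMF and 7.01 ± 1.93 FPKM in low IMF (log2 fold change -0.24, limma adjusted p = 0.767).

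Among 15 genes of thin filaments and their ends, 7 lay above 0 and 8 below, with 0 calls by limma and 0 at an unadjusted p under 0.05. KLHL40, which stabilises nebulin, averaged 30.7 ± 26.4 FPKM in high IMF and 19.0 ± 8.68 FPKM in low IMF (log2 fold change 0.50, adjusted p = 0.695). ACTA1, skeletal alpha-actin, averaged 21138 ± 7005 FPKM in high IMF and 27725 ± 7213 FPKM in low IMF (log2 fold change -0.59, adjusted p = 0.722). Of 11 genes of sarcomere assembly and upkeep, 7 lay above 0 and 4 below, with 0 calls by limma and 0 at an unadjusted p under 0.05. The smallest p among them were those of the chaperone HSPA8 (log2 fold change 0.50, adjusted p = 0.659) and the ubiquitin ligase FBXO32 (0.41, adjusted p = 0.785).

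Fibre-type genes were set beside the fast and slow forms of the Z-disc proteins. Of 9 tested fast fibre genes 3 lay above 0 and 6 below, with a median of -0.15, 0 calls by limma and 1 at an unadjusted p under 0.05. MYLPF, the fast regulatory light chain, averaged 3682 ± 1546 FPKM in high IMF and 4859 ± 1100 FPKM in low IMF (log2 fold change -0.46, unadjusted p = 0.0119, limma adjusted p = 0.521). TNNT3, fast troponin T, averaged 2986 ± 1149 FPKM in high IMF and 2343 ± 798 FPKM in low IMF (0.32, adjusted p = 0.738). Of 9 tested slow fibre genes 4 lay above 0 and 5 below, with a median of -0.0048, 0 calls by limma and 0 at an unadjusted p under 0.05. The smallest p were those of CASQ2 (-0.27, adjusted p = 0.759) and TNNI1 (0.37, adjusted p = 0.774).

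Other cell types were present in the bulk muscle. Of 10 markers of fat cells 9 lay above 0, with a median log2 fold change of 0.73 and 8 higher at an unadjusted p under 0.05, against 6.79% of all genes, and LEP was called higher in high IMF by limma, at 0.888 ± 0.469 FPKM in high IMF and 0.175 ± 0.0828 FPKM in low IMF (adjusted p = 0.00697). The summed level of that list was 121 to 267 FPKM in high IMF and 87.5 to 224 FPKM in low IMF, and its part in the members' values was not tested. Of 6 endothelial markers 5 lay above 0, of 7 fibroblast markers 3, of 6 smooth muscle markers 2 and of 4 blood and macrophage markers 3, with 0 calls by limma in these lists. At an unadjusted p under 0.05 stood CDH5 (0.55) and ALAS2 (0.34) above 0 and COL5A2 (-1.08) below, and the smallest p of the smooth muscle markers was that of CNN1 (-0.50, unadjusted p = 0.0639). The next in their lists were ADIPOQ (1.32, limma adjusted p = 0.0544) among fat cell markers and PECAM1 (0.48), COL3A1 (0.42), HBB (0.66) and LMOD1 (-0.11), each with an unadjusted p over 0.05, among the others.

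Across the 24 animals, likeness was measured as the Spearman correlation of FPKM with each named gene of at least 1 FPKM, a description in which genes share libraries and depth. MYOZ2 ranked most like slow troponin T (TNNT1, 0.79), the slow regulatory light chain (MYL2, 0.78) and slow troponin C (TNNC1, 0.77), and its correlation was positive with 9 of 9 slow fibre genes, with a median of 0.62. With the fast fibre genes it was positive for 2 of 9, with a median of -0.15. ACTN3 ranked most like the muscle enolase ENO3 (0.82), the tropomyosin TPM1 (0.80) and the glycolytic enzyme GPI (0.78). Its correlation was positive with 8 of 9 fast fibre genes (median 0.21) and 4 of 9 slow ones (median -0.019). MYOZ1, known from fast fibres, was positive with 9 of 9 slow fibre genes and 2 of 9 fast ones, at small medians of 0.17 and -0.076. The TTN locus was also positive with 9 of 9 slow fibre genes (median 0.24), and with 6 of 9 fast ones (median 0.13). ACTN2 and MYOM1 were each positive with 7 of 9 slow and 6 of 9 fast ones. The LDB3 locus, most like TXNDC15 (0.83), and the MYOM2 locus, most like GADL1 (0.69), had a positive correlation with 0 of 9 slow fibre genes, with medians of -0.33 and -0.24, and with 8 and 7 of 9 fast fibre genes.

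For the NEB locus the nearest were FILIP1L (0.92), ITCH (0.89) and PHKA1 (0.88), and for the NEB-named rows FILIP1L (0.89), BDP1 (0.87) and SYNE1 (0.86). For the TTN locus they were HNMT (0.65), PHF11 (0.61) and PLBD1 (0.61), and for the TTN-named rows SPATS2L (0.66). For MYOM1 they were ABCA5 (0.60), AGPAT3 (0.57) and the fast myosin-binding protein MYBPC2 (0.57). The values were 0.69 for MYOZ1 with LIG3 and 0.60 for ACTN2 with ACTA1. Between the 2 myomesins the correlation was 0.46 over all 24 animals, 0.27 within high IMF and 0.56 within low IMF. Between the TTN and NEB loci it was 0.15.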

How the data were processed

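The authors deposited 1 table of FPKM values, 1 per assembled transcript and animal, for 24 animals. No header states the unit: FPKM follows from values that are not whole and sums that differ between libraries. Per the submitters' processing notes the build was Sscrofa11.1 and the tools were StringTie 1.3.3 and HISAT2 2.0.5, with no roles stated. The deposited fold (a ratio, low over high IMF by its sign), p-values and 3 kinds of q-value are the authors', per the file headers, and transcript lengths are as deposited; no source used here says how they were made. Each listed transcript is above 0 in at least 19 libraries. The table gives no depth, so no count model was used and no counting interval is given; reads shared between isoforms were divided before deposit.

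FPKM was summed per symbol and chromosome, or per locus without a symbol. Loci were tied to members by overlap with RefSeq positions on Sscrofa11.1. The test was limma 3.58.1 (R 4.3.3) on log2(FPKM + 1), for the contrast high minus low IMF, with robust moderation and a mean-variance trend, on genes whose mean was 0.5 FPKM or more, with Benjamini-Hochberg adjustment at 0.05. This scale understates changes of low genes. Isoform shares used log2((FPKM + 0.1)/(other FPKM of the unit + 0.1)) where the gene's mean was 1 FPKM or more. The 3 ratios used two-sided permutation tests with 100000 resamples (exact within identifier sets) in Python 3.11.15 with scipy 1.17.1. Scripts were tested on simulated data. TMM trimmed 30% of M and 5% of A values at each end.

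Named genes are all members, the called or otherwise the 2 of smallest p in each list (and others at an unadjusted p under 0.05 where their count is 5 or fewer), and up to 3 nearest by rank correlation. The members and the lists were chosen with earlier results of these data known. The labels name each library as a separate animal; shared parents are not labelled. No sequences are shown.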

Additional observations from a re-analysis of the deposited data

How the results depend on the processing

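No member or locus was called under any of the 37 alternatives of the gene fit, and none of the transcripts or shares with the other pseudocount. The log2 fold change of MYOM1 ranged from -1.56 to -1.20 (adjusted p 0.138 to 0.644), that of the TTN locus from -0.88 to -0.57 and that of the TTN-named rows from -2.09 (weighted by length) to -0.73. ACTN3, the LDB3 locus, MYOM1, the TTN locus and the TTN-named rows kept their sign in every alternative that gave a value. Genes called higher among all genes numbered 5, against 3 to 29 over the alternatives: 3 with a mean of at least 5 FPKM, 23 with array weights, 18 without the pair of low top-10 share and 29 without low IMF animal 10. Genes called lower numbered 1, against 0 to 3.

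Other signs changed with the setting, all at values that were not called; the cause was not tested. Reference transcripts alone gave 0.53 for the MYOM2 locus and 0.038 for the NEB locus. 1 animal per shared 9 digits of the identifier gave 0.030 for ACTN2. MYOZ1 was -0.092 under TMM, -0.10 under upper-quartile scaling and -0.0016 with array weights, and -0.0098 to 0.059 with 1 animal left out. The NEB-named rows were 0.077 with array weights, 0.059 with the Y-linked level as a term, 0.054 weighted by length, and -0.14 to 0.17 with 1 animal left out. MYOZ2 was -0.039 to 0.24 with 1 animal left out.

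ACTN3 over ACTN2 was 0.57 within set A and -0.12 to 0.085 with 1 animal left out. MYOZ1 over MYOZ2 was 0.14 within set A and -0.20 to 0.034 with 1 animal left out. MYOM2 over MYOM1 kept its direction in all 31 alternatives and its call in 9. The call was lost with reference transcripts alone (1.88) and within sets A (1.06) and B (1.23). It was also lost with 1 animal per shared 9 digits (1.05, permutation test, adjusted p = 0.139, 11 high and 10 low IMF animals). Apart from reference transcripts alone, these settings had fewer animals. With 1 animal left out the ratio was 0.95 to 1.34 (adjusted p 0.0116 to 0.0927).

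No paired analysis was possible because the groups hold different animals and the labels give no pairing between them. A mean of at least 5 FPKM left no value for the TTN-named rows, and reference transcripts alone left none for TTN- and NEB-named rows. Depth is known only by inference.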
